A study of Mus musculus with 8 samples.

Results

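Chemokines and their receptors were followed in RNA-seq of neonatal cardiomyocytes (NCMs) exposed in utero to filtered air (FA) or diesel exhaust (DE). Members were all protein-coding genes of the count table whose symbol is Ccl, Cxcl, Ccr, Cxcr, Ackr, Xcr or Cx3cr followed by a digit, together with Cx3cl1 and Xcl1. The rule used names only and no measured value, and it found 62 of the 27179 genes in the table, of which 39 encode ligands and 23 receptors.

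Chemokines are small secreted proteins that steer the migration of leukocytes and other cells along gradients, and most of their receptors signal through inhibitory G proteins. Atypical receptors bind chemokines without that G protein signal and scavenge or store them. In heart tissue, Cxcl12 and its receptors are known for their part in vessel formation, and ligands such as Ccl2 and Cxcl1 are known for drawing monocytes and neutrophils into injured muscle.

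The 8 libraries comprised 4 FA and 4 DE NCM samples from C57Bl/6 J mice. By the methods, each was made from the heart of 1 male pup collected on postnatal day 0 (PND0). Pregnant dams had breathed FA or DE through most of gestation, and the sources name no other treatment or allele in either group. Hearts were trimmed of atria and vessels, dissociated and plated briefly with Ara-C so that fibroblasts could attach, and the cells left in suspension were frozen, so other cell types can remain in the samples. The labels name the FA samples 2, 3, 4 and 6 and the DE samples 1, 3, 5 and 7, and they do not say which pups were littermates. The methods also give fewer samples per group than the 4 labelled. The p-values therefore measure the spread between these libraries, and some of the pups may share a dam. In a chi-square comparison of counts, which grows with depth, FA 2 and FA 4 were the closest pair (5.06 per gene, other pairs within a group 15.97 to 62.8), and the closest DE pairs were DE 1 with DE 7 (15.97) and DE 3 with DE 5 (20.2). All were kept as separate libraries, and whether FA 2 and FA 4 came from different pups was not tested.

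Libraries held 17943024 to 39839737 counted fragments, and the biological coefficient of variation was 15.95%. All 9 cardiomyocyte markers were detected, with a summed level of 54767 to 61894 CPM, which is counts scaled to a common library size, in FA and 43393 to 52053 CPM in DE. In the sample names, the group letters are followed by 11 in all FA libraries and in DE 1 and DE 7, and by 12 in DE 3 and DE 5. What this number, called the prefix here, stands for is not given in the sources used here, and prefix 12 holds DE libraries only. The closest DE pairs by counts were thus those of the same prefix.

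Several chemokine ligands were expressed at a higher level in DE NCMs than in FA NCMs. A gene was called where the adjusted p of edgeR's quasi-likelihood test was at most 0.05 and the groups differed by at least 25%. By this rule 6 ligands rose, namely Cxcl1, Ccl2, Cxcl9, Ccl21d, Cxcl2 and Cxcl10, and no member fell. With the prefix as a term in the fit only Cxcl9 kept its call, and none of them did among prefix 11 libraries alone. Of the 62 members, 23 had enough counts to be tested, and 6 of the 23 were called, beside 5.8% of all 14966 tested genes. Calls of higher expression made up 3.58% and calls of lower expression 2.22% of all tested genes.

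The direction of the fitted differences was shared beyond the called genes. All 16 tested ligands had a higher fitted level in DE, with a median log2 fold difference of 0.74, whereas the median over all tested genes was 0.0037. With the near-identical Ccl21 copies counted once, as their sum, all 14 ligands were higher and the median was 0.61. With no filter on low counts, 30 of 34 ligands and 14 of 21 receptors were higher. The direction of a member with 1 count, such as Ccl12, was fixed there by the group of that count, so this fit adds little. Among the 7 tested receptors, 5 were higher and 2 lower, with a median of 0.23, and none was called. Over the alternative fits the receptor median ran from 0.05 without DE 3 to 0.36 with no filter, and was 0.10 with the prefix term. An unadjusted p under 0.05 was reached by 11 members, all of them ligands and all higher, beside 25.6% of all tested genes. In 7 members, every DE library lay above every FA library, beside 7.43% of all tested genes. They were Cxcl1, Cxcl2, Cxcl9, Ccl2, Ccl21b, Ccl21d and the receptor gene Cxcr5. Members passed the filter on counts partly through the group in which they were higher, so these counts describe the tested members and do not stand for all 62. In NCM samples that may hold other cells, more cells of a type and more RNA per cell cannot be told apart.

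**Figure D1:**
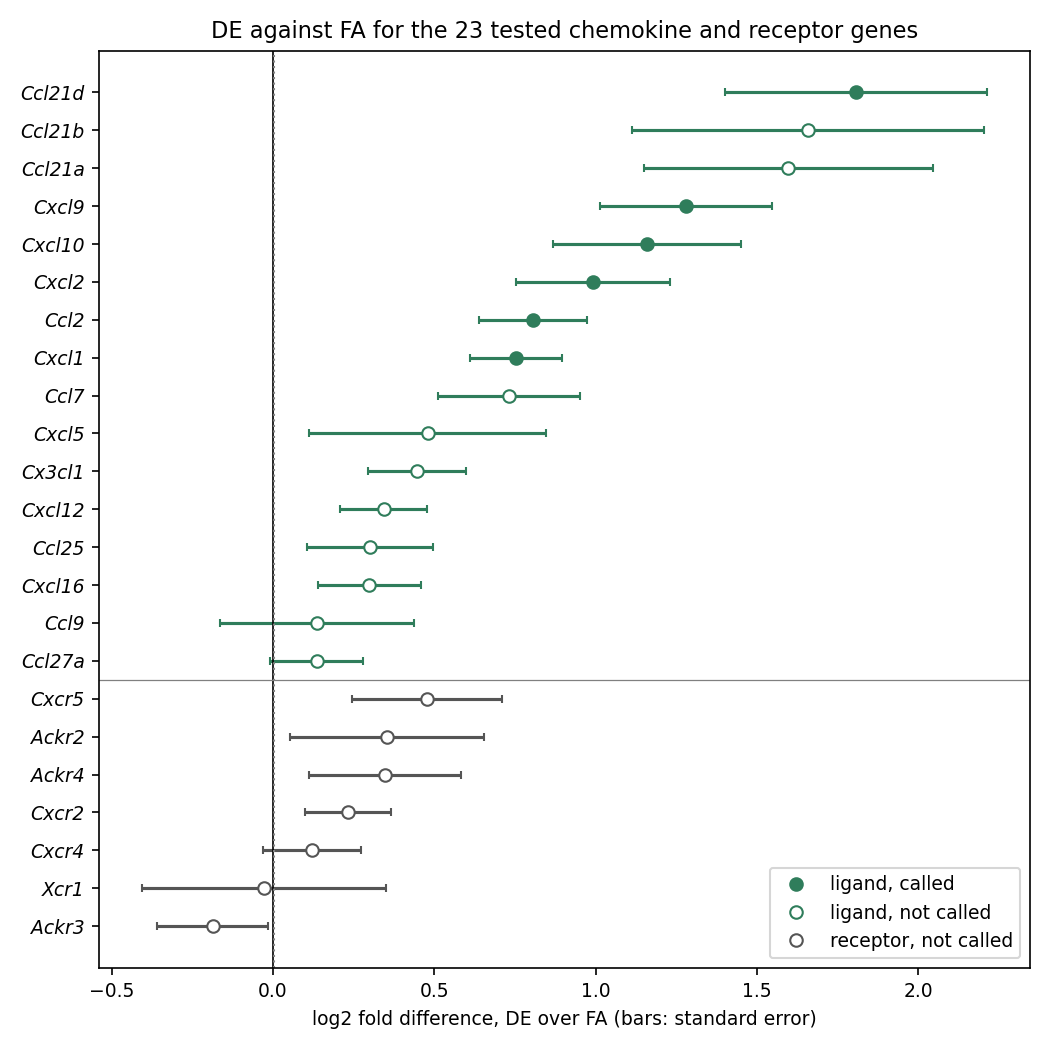
Log2 fold difference of DE over FA (horizontal axis, bars are standard errors) for the 23 tested members, ligands above the line and receptors below it, with called genes filled. All 16 ligands lie to the right of 0, and the dotted line marks the median of all tested genes, 0.0037.

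The ELR group of CXC ligands, which attracts neutrophils through Cxcr2, was led by Cxcl1 and Cxcl2. These genes lie close together on chromosome 5, Cxcl1 at chr5:90891245-90893121 and Cxcl2 at chr5:90903899-90905938 (GRCm38.p6, both on the plus strand). Of the 5 members of this group, 3 were tested and 2 were called.

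Cxcl1 stood at 14.1, 13.0, 14.6 and 18.2 CPM in FA 2, 3, 4 and 6, and at 24.4, 19.8, 27.8 and 28.5 CPM in DE 1, 7, 3 and 5. The groups did not overlap, and DE 7, the lowest DE library, lay above FA 6, the highest FA library. Cxcl1 thus rose by a log2 fold change of 0.75 (SE 0.144, adjusted p = 0.0156), with means of 14.96 ± 2.26 CPM for FA and 25.1 ± 3.96 CPM for DE (SD, n = 4 each). The call was lost in 6 of 19 alternative fits (adjusted p from 0.000117 to 0.1 over all 19), among them the fit with the prefix as a term and those without FA 2, FA 4 or DE 3. Cxcl2 was measured at 1.79, 2.39, 2.82 and 3.44 CPM in FA 2, 3, 4 and 6 and at 3.57, 4.53, 6.28 and 6.04 CPM in DE 1, 7, 3 and 5. Here too the groups were apart, although DE 1 exceeded FA 6 by little. Its log2 fold change was 0.99 (SE 0.239, adjusted p = 0.0366), and the call was lost without any single one of FA 2, FA 3, FA 4, DE 7, DE 3 or DE 5 (adjusted p of 0.0503 to 0.119) and in 9 of the 19 fits in all, the prefix term included. Cxcl5, another ligand of Cxcr2, had 124 counts over all libraries and ranged from 0.294 to 0.836 CPM in FA and from 0.488 to 0.817 CPM in DE, so that its groups overlapped (log2 fold difference 0.48, adjusted p = 0.433). Cxcl3 had 15 counts and Cxcl15 had 1, which was too few to test.

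The genes Cxcl1, Cxcl2 and Cxcl3, of the same chromosome 5 cluster, share a kappaB consensus in the 250 bases before their RefSeq start sites. This element is known as a binding sequence of NF-kappaB, and the stretches around it are shown because the same letters recur before genes of very unequal level. They run 5′ to 3′ on the gene's strand, and the capitals in each cover 2 overlapping matches of the consensus. They lie at chr5:90891154-90891204 (Cxcl1), chr5:90903782-90903832 (Cxcl2) and chr5:90786008-90786058 (Cxcl3), all on the plus strand of GRCm38.p6.
Cxcl1: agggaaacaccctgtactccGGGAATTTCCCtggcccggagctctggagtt
Cxcl2: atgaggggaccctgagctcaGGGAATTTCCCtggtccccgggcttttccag
Cxcl3: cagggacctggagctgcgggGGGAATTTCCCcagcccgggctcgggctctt
The first capital stands 71 bases before the start in Cxcl1, 97 in Cxcl2 and 73 in Cxcl3. Searched on both strands, the consensus was present in the windows of 9 of the 47 members with a RefSeq promoter entry and in 4.46% of the 27025 genes with an entry. Among these 3 genes the totals differed widely, with 4705 counts for Cxcl1, 899 for Cxcl2 and 15 for Cxcl3 over all libraries. Cxcl15, which lies between Cxcl3 and Cxcl1, had no match. A match is a description of the letters and no evidence of binding in these cells.

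Cxcl9 and Cxcl10, interferon-inducible ligands of Cxcr3 that attract activated T cells and natural killer cells, both rose and had the largest fold changes of the called members apart from Ccl21d. Cxcl9 lies at chr5:92321331-92328079 and Cxcl10 at chr5:92346638-92348889, both on the minus strand. Cxcl9 was at 1.76, 0.648, 1.19 and 1.08 CPM in FA 2, 3, 4 and 6 and at 3.42, 2.45, 3.36 and 2.49 CPM in DE 1, 7, 3 and 5. No DE library fell into the FA range. The log2 fold change was 1.28 (SE 0.267, adjusted p = 0.0226), and the means were 1.17 ± 0.46 CPM for FA and 2.93 ± 0.529 CPM for DE (SD, n = 4 each). The call of Cxcl9 was lost in 4 of 19 alternative fits, among them those without FA 4 or DE 3 (adjusted p from 0.000271 to 0.0830 over all 19).

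Cxcl10 reached 8.77, 5.38, 7.39 and 8.70 CPM in FA 2, 3, 4 and 6 and 16.6, 7.52, 24.4 and 18.8 CPM in DE 1, 7, 3 and 5. DE 7 lay within the FA range, while the other 3 DE libraries lay above it. The log2 fold change was 1.16 (SE 0.291, adjusted p = 0.0426), and the call was lost with limma-voom (1.10, adjusted p = 0.0674) and without any single one of FA 2, FA 3, FA 4, FA 6, DE 3 or DE 5 (adjusted p of 0.0624 to 0.126). Exons of Cxcl10 share 5.91% of their length with Art3, whose mean was 110.2 CPM for FA and 114 CPM for DE (log2 fold difference 0.05, adjusted p = 0.895). Another interferon-inducible ligand gene, Cxcl11, is listed as a pseudogene in the RefSeq table and was outside the rule.

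Before the start of Cxcl10, the window held both a pair of GAAA tetramers separated by 2 bases of any kind, which resembles the interferon-stimulated response element, and kappaB matches. The stretch covers chr5:92348963-92349122 on the minus strand of GRCm38.p6 and is shown, with all matches in capitals, because Cxcl10 was the called member, among those with an entry, whose window held both motifs.
Cxcl10: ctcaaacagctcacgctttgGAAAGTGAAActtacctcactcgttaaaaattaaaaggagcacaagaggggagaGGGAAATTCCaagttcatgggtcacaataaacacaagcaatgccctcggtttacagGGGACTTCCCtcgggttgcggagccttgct
The first capitals stand 213, 159 and 103 bases before the start, and the first of them is the GAAA pair. That motif, searched on both strands, was found in 3 of the 47 members and in 3.46% of the 27025 genes. No capitals overlapped between the motifs. Neither motif was found in the windows of Cxcl9, Cxcl12, Cx3cl1, Ccl21a, Ccl21b or Ccl21d, which says only that these letters are not there.

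Among inflammatory CC ligands, Ccl2 rose, and its neighbour Ccl7 lay above FA in most libraries without passing the adjusted test. Both attract monocytes through Ccr2, and they lie side by side on chromosome 11, Ccl2 at chr11:82035577-82037452 and Ccl7 at chr11:82045712-82047525. Ccl2 was measured at 14.5, 13.4, 15.2 and 18.6 CPM in FA 2, 3, 4 and 6, and at 22.4, 22.6, 26.4 and 36.3 CPM in DE 1, 7, 3 and 5. All DE libraries exceeded all FA libraries, and DE 5 was the highest. Its log2 fold change was 0.81 (SE 0.167, adjusted p = 0.0224), the FA mean being 15.4 ± 2.23 CPM and the DE mean 26.9 ± 6.51 CPM (SD, n = 4 each). In 7 of 19 alternative fits the call of Ccl2 was lost (adjusted p from 0.000479 to 0.121 and log2 fold change from 0.54 to 0.91 over all 19), among them the prefix term and the fits without FA 2, FA 3, FA 4 or DE 3.

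Ccl7 was at 2.14, 2.34, 2.14 and 3.20 CPM in FA 2, 3, 4 and 6 and at 3.06, 3.52, 4.04 and 5.54 CPM in DE 1, 7, 3 and 5. Only DE 1 and FA 6 overlapped. Its log2 fold difference was 0.73 (SE 0.219) at an adjusted p of 0.0720, so it was not called. In 3 of 19 alternative fits Ccl7 was called, among them DESeq2 (adjusted p = 0.0285). The remaining genes of the same chromosome 11 cluster were almost silent, with 13 counts for the eosinophil attractant Ccl11, 4 for Ccl1, 1 for Ccl12 and 0 for Ccl8 over all libraries. Ccl9 was the remaining tested member of this group, at 0.295 to 0.508 CPM in FA and 0.349 to 0.545 CPM in DE (log2 fold difference 0.14, adjusted p = 0.835).

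**Figure D2:**
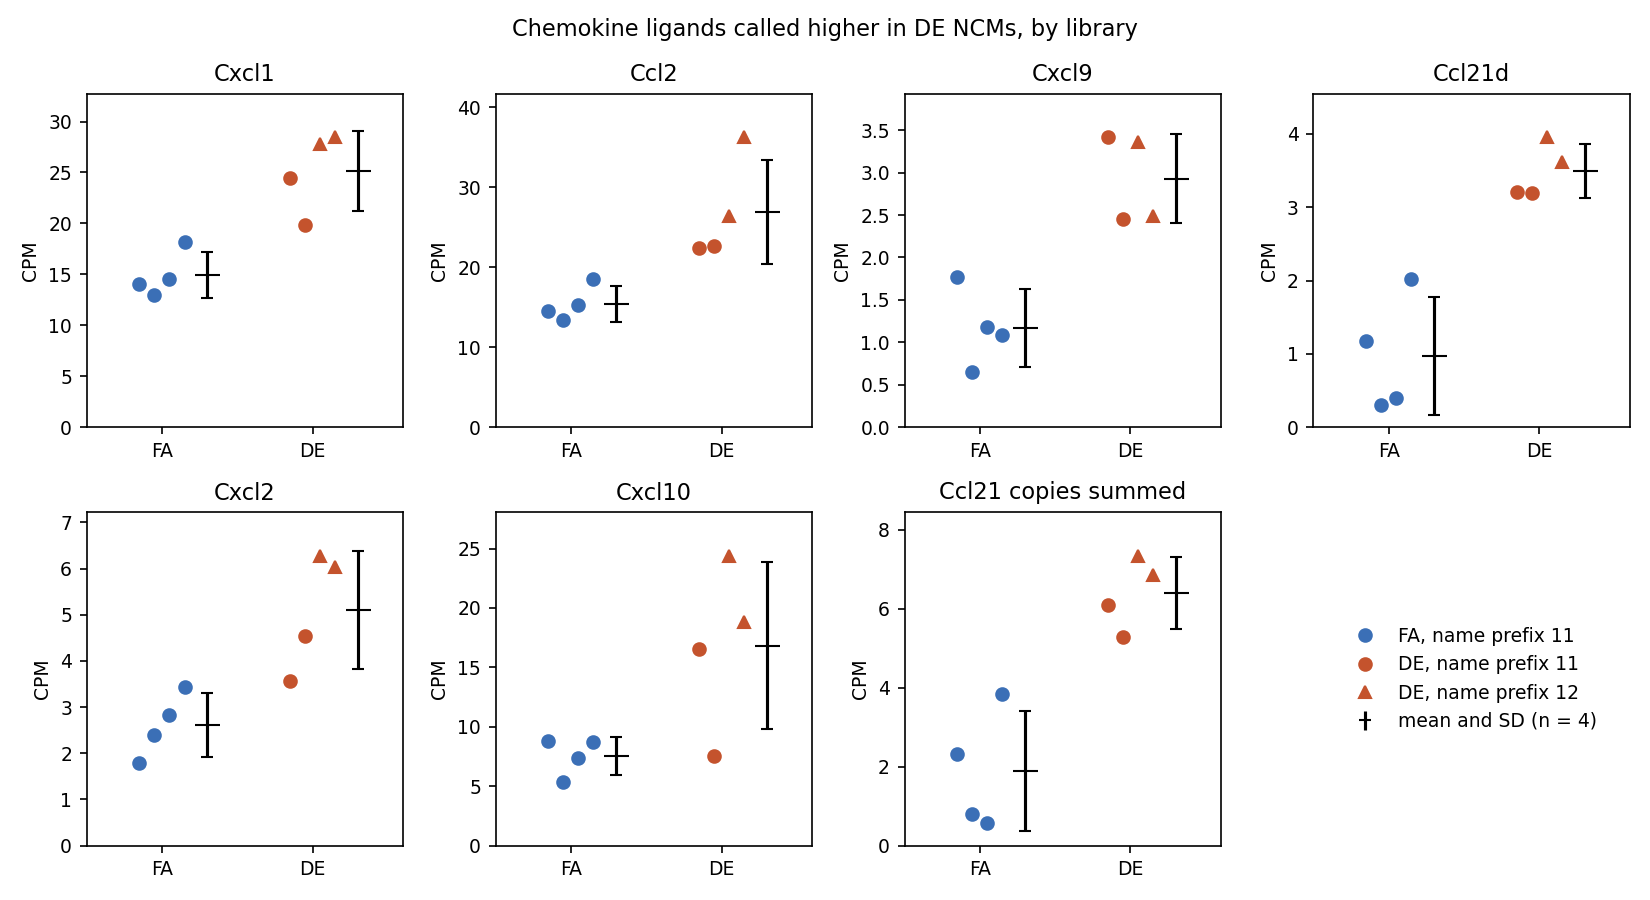
CPM of the 6 called ligands and of the summed Ccl21 copies in each library (points), with the mean and SD of the 4 libraries per group beside them. Triangles mark the DE libraries with prefix 12. DE points lie above all FA points in each panel except that of Cxcl10, where DE 7 at 7.52 CPM lies within the FA range.

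Ccl21, which guides dendritic cells and lymphocytes toward lymphatic vessels and lymph nodes through Ccr7, showed the largest fold differences of all tested members. Mice carry several near-identical copies of the gene on chromosome 4. The 399-base coding sequences of Ccl21b and Ccl21d are the same, and Ccl21a differs from each of them at 2 positions, so a fragment can often not be assigned to a copy. Which rule the counting applied to such fragments is not given in the sources used here.

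The copies also resemble each other outside the coding sequence. In the 250 bases before the start, Ccl21a and Ccl21d differed at 1 of 249 aligned bases. The stretch around this base is shown because it is the single letter that separates both windows, with the differing base in capitals. It lies at chr4:42774070-42774130 on the minus strand for Ccl21a and at chr4:41903473-41903533 on the plus strand for Ccl21d (GRCm38.p6).
Ccl21a: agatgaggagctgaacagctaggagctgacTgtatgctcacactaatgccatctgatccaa
Ccl21d: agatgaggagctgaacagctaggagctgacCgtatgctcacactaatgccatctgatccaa
The first RefSeq start of Ccl21b lies far from its coding exons, and its window had 32.8% identity with that of Ccl21a.

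Ccl21d was at 1.18, 0.299, 0.395 and 2.02 CPM in FA 2, 3, 4 and 6 and at 3.21, 3.20, 3.96 and 3.62 CPM in DE 1, 7, 3 and 5. FA libraries fell into a lower pair, FA 3 and FA 4, and a higher pair, FA 2 and FA 6, both below every DE library. Ccl21d was called (log2 fold change 1.81, SE 0.406, adjusted p = 0.0290), and lost its call in 7 of 19 alternative fits (adjusted p from 0.000437 to 0.107 over all 19), among them the prefix term and the fits without FA 2, FA 3, FA 4 or DE 3. Ccl21a stood at 0.856, 0.399, 0.169 and 1.23 CPM in the FA libraries in the same order and at 2.24, 0.853, 2.44 and 2.64 CPM in DE 1, 7, 3 and 5. DE 7 therefore lay within the FA range for this copy. Ccl21b was at 0.294, 0.0996, 0 and 0.590 CPM in FA and at 0.635, 1.23, 0.947 and 0.599 CPM in DE, with DE 7 the highest. Neither passed the quasi-likelihood test (adjusted p of 0.0592 for Ccl21a and 0.0931 for Ccl21b), but DESeq2 called both (0.0102 and 0.0316), as did the likelihood ratio test (0.0113 and 0.00889). No counts were assigned to Ccl21c.

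Summed over Ccl21a, Ccl21b, Ccl21c and Ccl21d, the level was 2.33, 0.797, 0.564 and 3.84 CPM in FA 2, 3, 4 and 6 and 6.08, 5.28, 7.34 and 6.86 CPM in DE 1, 7, 3 and 5. The sums did not overlap between the groups, and the position of DE 7 inside the FA range, seen for Ccl21a, was absent from the sum. The log2 fold change was 1.74 (SE 0.416, adjusted p = 0.0360), and the sums averaged 1.88 ± 1.52 CPM for FA and 6.39 ± 0.906 CPM for DE (SD, n = 4 each). When the predicted genes Gm13304 and Gm10591, whose coding sequences equal that of Ccl21b, were added to the sum, the log2 fold difference was 1.63 and the adjusted p was 0.0640. The sum also lost its call without any single one of FA 2, FA 3, FA 4, DE 7, DE 3 or DE 5, with log2 fold differences of 1.46 to 1.87 and adjusted p-values of 0.0501 to 0.0967.

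Ccl19, the other ligand of Ccr7, had 6 counts over all libraries. Ccr7 itself had 28 counts and lay at 0.0802, 0.149, 0.0564 and 0.148 CPM in FA 2, 3, 4 and 6 and at 0.121, 0, 0.143 and 0.224 CPM in DE 1, 7, 3 and 5, with overlapping groups. Ackr4, the atypical receptor that takes up Ccl19 and Ccl21, was measured at 1.20, 2.04, 1.75 and 2.21 CPM in FA 2, 3, 4 and 6 and at 2.69, 2.08, 2.55 and 1.70 CPM in DE 1, 7, 3 and 5. Its groups overlapped (log2 fold difference 0.35, SE 0.235, adjusted p = 0.373), and 8.90% of its exon length is shared with Acad11, with a mean of 34.8 CPM for FA and 35.5 CPM for DE. Markers of lymphatic endothelium, a known source of Ccl21, were higher in DE in 5 of 6 cases. An unadjusted p under 0.05 was reached by Lyve1 and Flt4, which were higher, and by Prox1, which was lower. The summed level of all 6 markers was 103 to 152 CPM in FA and 105 to 135 CPM in DE. Without Prox1, a choice made after seeing the values, the sums were 55.0 to 78.0 CPM in FA and 73.0 to 97.1 CPM in DE, which overlapped through DE 5. Of the 6 markers, Lyve1 rose (log2 fold change 0.77, adjusted p = 0.0304) and Prox1, which cardiomyocytes also express, fell (-0.73, adjusted p = 0.0265). The part of these cells in the Ccl21 difference was not tested.

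Of the other homeostatic CC ligands, which are made without inflammation in particular tissues, Ccl27a and Ccl25 were tested. Ccl27a, known from skin, ranged from 4.57 to 5.73 CPM in FA and from 5.01 to 6.41 CPM in DE (log2 fold difference 0.14, adjusted p = 0.579). Ccl25, known from thymus and gut, ranged from 1.13 to 1.79 CPM in FA and from 1.69 to 2.00 CPM in DE (log2 fold difference 0.30, adjusted p = 0.355). Within this group, 8 of 13 members were not tested, the highest of them Ccl28 with 70 counts.

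Cxcl12, the ligand of Cxcr4 and Ackr3 that stromal and endothelial cells produce, was the ligand with the most counts, 20479 over all libraries. It was at 83.7, 78.1, 77.8 and 80.8 CPM in FA 2, 3, 4 and 6 and at 131, 98.7, 97.2 and 79.7 CPM in DE 1, 7, 3 and 5. The FA libraries lay close together, DE 1 stood highest and DE 5 lay within the FA range. The log2 fold difference was 0.34 (SE 0.135, adjusted p = 0.144). Cxcr4, its signalling receptor, was at 9.01, 9.22, 8.35 and 9.64 CPM in FA 2, 3, 4 and 6 and at 9.29, 10.6, 12.2 and 7.48 CPM in DE 1, 7, 3 and 5. DE spanned a wider range than FA on both sides (log2 fold difference 0.12, SE 0.151, adjusted p = 0.643).

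Ackr3, the atypical receptor that clears Cxcl12, was at 17.0, 17.49, 17.4 and 24.4 CPM in FA 2, 3, 4 and 6 and at 21.8, 14.9, 17.2 and 13.1 CPM in DE 1, 7, 3 and 5. FA 6 and DE 1 were the high libraries, and the groups overlapped (log2 fold difference -0.19, SE 0.173, adjusted p = 0.523). Cx3cl1, a membrane-bound ligand that is shed from endothelium and other cells, was at 11.8, 10.9, 10.9 and 10.2 CPM in FA 2, 3, 4 and 6 and at 11.4, 13.8, 19.0 and 15.6 CPM in DE 1, 7, 3 and 5. DE 1 lay within the FA range, and the log2 fold difference was 0.45 (SE 0.150, adjusted p = 0.0988). In 1 of 19 alternative fits Cx3cl1 was called (adjusted p from 0.0347 to 0.620 over all 19). Cxcl16, the other ligand that is made as a membrane protein, ranged from 6.15 to 8.95 CPM in FA and from 7.63 to 10.5 CPM in DE (log2 fold difference 0.30, adjusted p = 0.258), and 18.3% of its exon length is shared with Zmynd15.

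No receptor gene was called. None of the 11 CC receptor genes had enough counts to be tested, and the highest, Ccr10, had 51 counts over all libraries. Cxcr2, the receptor of Cxcl1 and Cxcl2 that is known from neutrophils, was at 13.4, 14.3, 12.0 and 13.4 CPM in FA 2, 3, 4 and 6. It was at 12.4, 16.3, 15.1 and 18.7 CPM in DE 1, 7, 3 and 5. Neutrophil markers summed to 1.58 to 4.33 CPM in FA and 3.69 to 8.99 CPM in DE, and the cells that hold Cxcr2 were not tested. The groups overlapped for Cxcr2 through DE 1 (log2 fold difference 0.23, SE 0.133, adjusted p = 0.295). Cxcr5, the B-cell receptor of Cxcl13, ranged from 0.639 to 1.30 CPM in FA and from 1.42 to 1.76 CPM in DE. Although its groups did not overlap, it was not called (log2 fold difference 0.48, SE 0.232, adjusted p = 0.220), and 3.30% of its exon length is shared with Bcl9l. The summed B-cell markers did not overlap either (1.28 to 1.66 CPM in FA, 1.69 to 5.54 CPM in DE), and their part in the Cxcr5 difference was not tested. The scavenger Ackr2 and the dendritic cell receptor Xcr1 overlapped between groups, with log2 fold differences of 0.35 and -0.03 and adjusted p-values of 0.482 and 0.972.

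Levels of different genes were compared per length, as FPKM, which divides CPM by the exon length, in FA. That length joins all annotated exons of a gene, 8176 bases for Cxcl12 and 1138 for Ccl2, so the order depends on this choice. By CPM the FA mean of Cxcl12 (80.1) lay above that of Ccl2 (15.4). Ccl2 had the highest FA median at 13.1 FPKM, followed by Cxcl12 at 9.72, Cxcl1 at 7.63, Ackr3 at 5.22, Cxcr4 at 5.04, Cxcr2 at 4.40, Cxcl10 at 3.57 and Ccl7 at 2.80 FPKM. The FA range of Ccl2, from 11.8 to 16.3 FPKM, lay above that of Cxcl12, from 9.52 to 10.2 FPKM. Cxcl12 and Cxcl1 overlapped, since Cxcl1 spanned 6.94 to 9.70 FPKM. The ranges of Ackr3 (5.08 to 7.30 FPKM), Cxcr4 (4.62 to 5.33 FPKM) and Cxcr2 (3.93 to 4.71 FPKM) also overlapped from neighbour to neighbour. In DE, Cxcl1 had a median of 13.9 FPKM and Cxcl12 one of 12.0 FPKM.

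Set beside their receptors, the ligands fell into groups. Cxcl12 and Cxcl1 had a receptor of like order in the same libraries, with FA medians as given above. The other Cxcr2 ligands lay lower than Cxcr2, with FA medians of 1.26 FPKM for Cxcl2, 0.217 FPKM for Cxcl5 and 0 for Cxcl3. For Ccl2 and Ccl7, by contrast, the receptor Ccr2 had 9 counts over all libraries and an FA median of 0.00364 FPKM. Cx3cl1, at an FA median of 2.78 FPKM, stood beside 0.0214 FPKM of its receptor Cx3cr1. Cxcl16 at 2.48 FPKM stood beside 0.109 FPKM of Cxcr6, and Cxcl10 at 3.57 FPKM and Cxcl9 at 0.376 FPKM beside 0.0142 FPKM of Cxcr3. Those receptors are known chiefly from leukocytes.

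The remaining pairs were low on one or both sides. Ccl27a at 2.17 FPKM and Ccl28 at 0.0613 FPKM stood beside 0.187 FPKM of Ccr10, and Ccl25 at 0.198 FPKM beside 0.0180 FPKM of Ccr9. The order was turned for Cxcr5 at 0.368 FPKM, whose ligand Cxcl13 was at 0.0214 FPKM, and for Xcr1 at 0.129 FPKM, whose ligand Xcl1 had no counts. Ccr1, Ccr3, Ccr4, Ccr6 and Ccr8 had FA medians of 0 to 0.0904 FPKM. The ligands paired with them here, which are not all of their ligands, were Ccl1, Ccl3, Ccl4, Ccl5, Ccl11, Ccl17, Ccl20, Ccl22 and Ccl24. These ligands had FA medians of 0 to 0.126 FPKM.

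**Figure D3:**
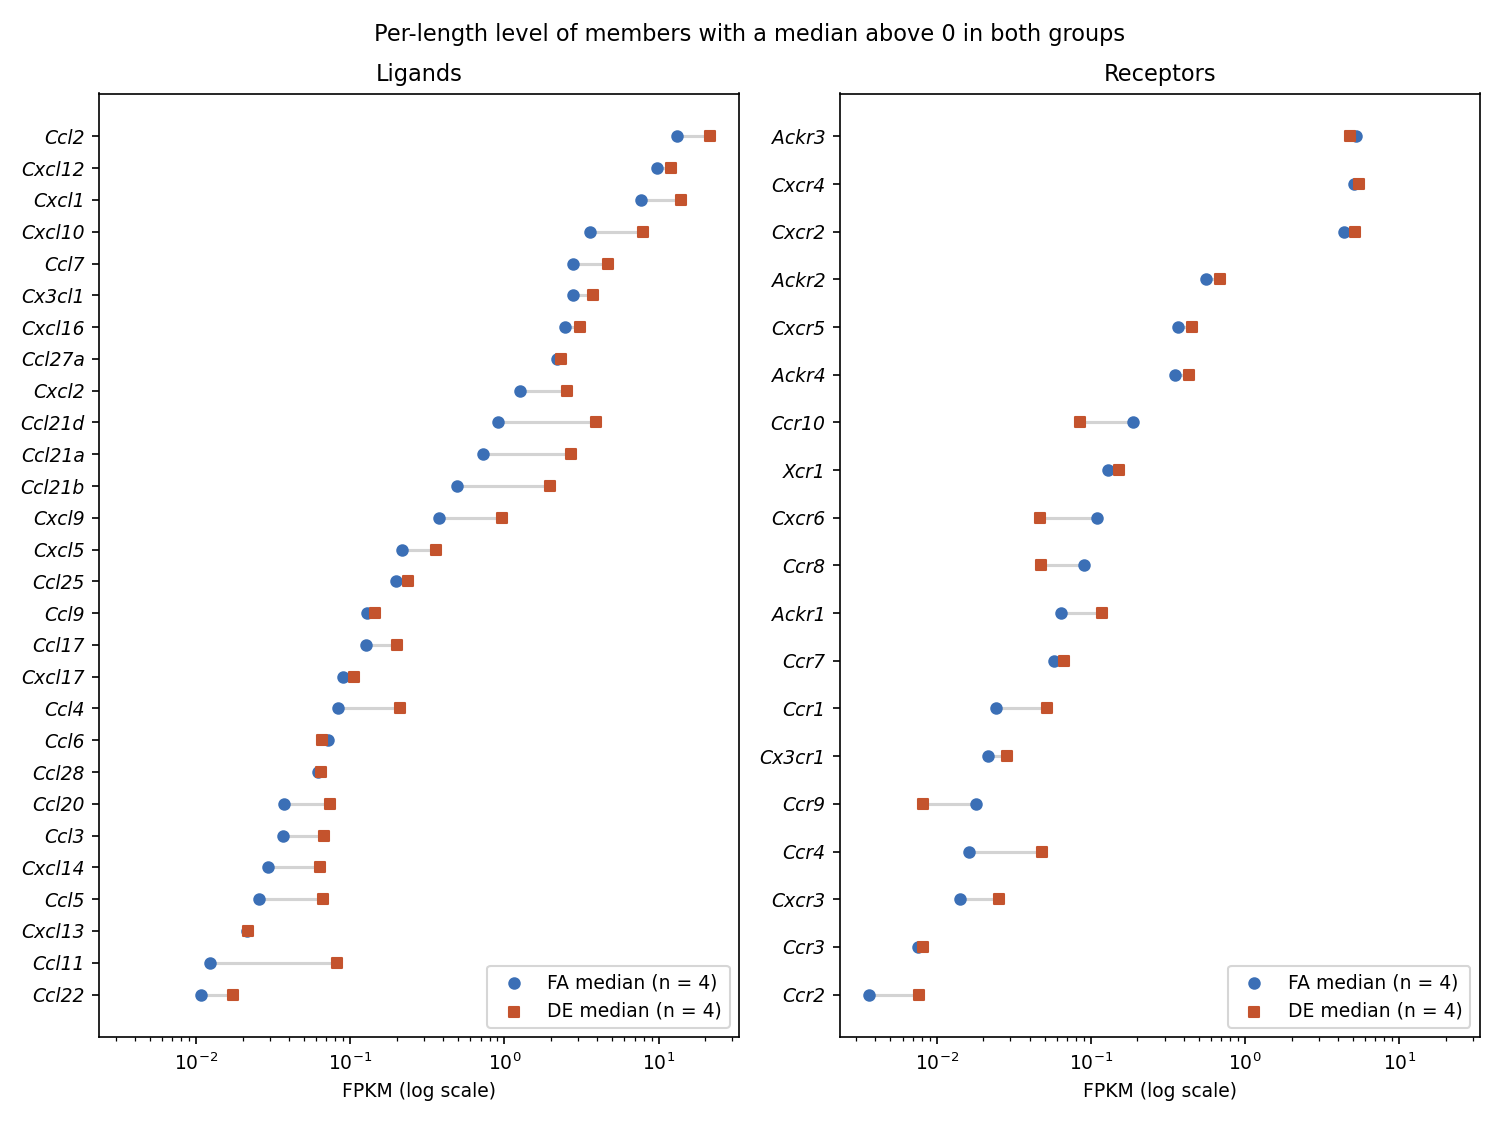
Median FPKM in FA (circles) and DE (squares) on a log axis for the 28 ligands and 19 receptors whose median was above 0 in both groups, ordered by the FA median. Ccl2, Cxcl12 and Cxcl1 lead the ligands, and Ackr3, Cxcr4 and Cxcr2, between 4.40 and 5.22 FPKM in FA, stand apart from the other receptors.

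Altogether 39 members were not tested, with at most 70 counts each over the 8 libraries. They comprised 23 ligands and 16 receptors, and 7 of them, Ccl8, Ccl21c, Ccl26, Ccl27b, Xcl1, Ccr1l1 and Cxcr1, had no count in any library. A count of 0 allows up to 3 counts over all libraries, or 0.0135 CPM, so that expression below this level was not detectable. This limit covers counting error only, and it does not hold for Ccl21c and Ccl27b, whose fragments may have been assigned to near-identical copies or to none.

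Genes that act with chemokines had smaller median differences than the ligands. Of 4 tested chemokine-like genes outside the naming rule, none was called, and all 4 had a higher fitted level in DE, among them the platelet chemokine Pf4 (log2 fold difference 0.83, adjusted p = 0.140) and the cytokine Mif (0.50, adjusted p = 0.0993). Among 31 tested partners in receptor signalling, chemokine cleavage and presentation, 1 rose and none fell, with 22 higher and a median log2 fold difference of 0.12. Calls of higher expression made up 3.58% of all tested genes. The gene that rose was Sdc4, a heparan sulfate proteoglycan that binds chemokines at the cell surface, with means of 21.6 ± 3.10 CPM for FA and 30.9 ± 1.55 CPM for DE (SD over 4 libraries, log2 fold change 0.52, adjusted p = 0.0269).

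Of 32 tested inflammatory and NF-kappaB genes, 1 rose and none fell, beside 3.58% of all tested genes called higher. In this list 27 were higher, and the median log2 fold difference was 0.17. The gene that rose was Cebpd, a transcription factor of the acute phase response, with means of 7.95 ± 1.04 CPM for FA and 13.3 ± 3.57 CPM for DE (SD over 4 libraries, log2 fold change 0.74, adjusted p = 0.0430). The adhesion molecule Icam1 (0.61, adjusted p = 0.0759), the NF-kappaB inhibitor Nfkbia (0.38, adjusted p = 0.0886) and the cytokines Il6 (0.75, adjusted p = 0.220) and Tnf (0.85, adjusted p = 0.225) did not pass.

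Summed levels of several marker lists also differed between the groups, and their part in the chemokine differences was not tested. All 8 fibroblast markers were higher and 3 of them rose (Col1a1, Dcn and Dpt), with a summed level of 1369 to 2283 CPM in FA and 2525 to 4175 CPM in DE. Of 11 macrophage and monocyte markers, 6 were tested, 5 were higher and none was called, with sums of 17.6 to 23.3 CPM in FA and 24.0 to 35.4 CPM in DE. Their levels were unequal, with means of 8.15 CPM for FA and 12.7 CPM for DE for Cd68, a lysosomal protein, 5.41 and 7.42 CPM for the mannose receptor Mrc1, and 3.20 and 2.76 CPM for the growth factor receptor Csf1r, the 1 tested marker that was lower. Adgre1, which encodes F4/80, was untested at 0.108 and 0.166 CPM. Neutrophil markers summed to 1.58 to 4.33 CPM in FA and 3.69 to 8.99 CPM in DE, with all 3 tested genes higher and at an unadjusted p under 0.05 (median log2 fold difference 1.03), none called and Ly6g at 0 in every library except DE 1.

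Of 8 vascular endothelial markers, 7 were higher in DE, 4 reached an unadjusted p under 0.05 and none was called, with sums of 969 to 1282 CPM in FA and 1051 to 1562 CPM in DE. Smooth muscle and pericyte markers, none of them called, were lower in sum, with 1117 to 1474 CPM in DE against 1566 to 2110 CPM in FA, although 4 of the 7 markers were higher. The sum followed the most abundant of them, Acta2 (mean 1151 CPM in FA, 746 CPM in DE) and Abcc9 (mean 401 CPM in FA, 298 CPM in DE). B-cell markers were low but did not overlap in sum, with 1.28 to 1.66 CPM in FA and 1.69 to 5.54 CPM in DE. Both tested genes of that list were higher, and Cd79b of the B-cell antigen receptor rose (log2 fold change 1.77, adjusted p = 0.0453). T-cell markers summed to 1.52 to 1.74 CPM in FA and 1.36 to 3.19 CPM in DE, and thymic epithelial markers to 0.639 to 1.95 CPM in FA and 1.06 to 2.00 CPM in DE, with Foxn1 and Krt5 at 0 in all libraries and none called. Mesothelial markers summed to 140 to 161 CPM in FA and 133 to 152 CPM in DE, and erythroid markers to 758 to 1878 CPM in FA and 1206 to 2019 CPM in DE, with none called in either list. Among cardiomyocyte markers, Myh6 fell (log2 fold change -0.67, adjusted p = 0.00315).

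**Figure D4:**
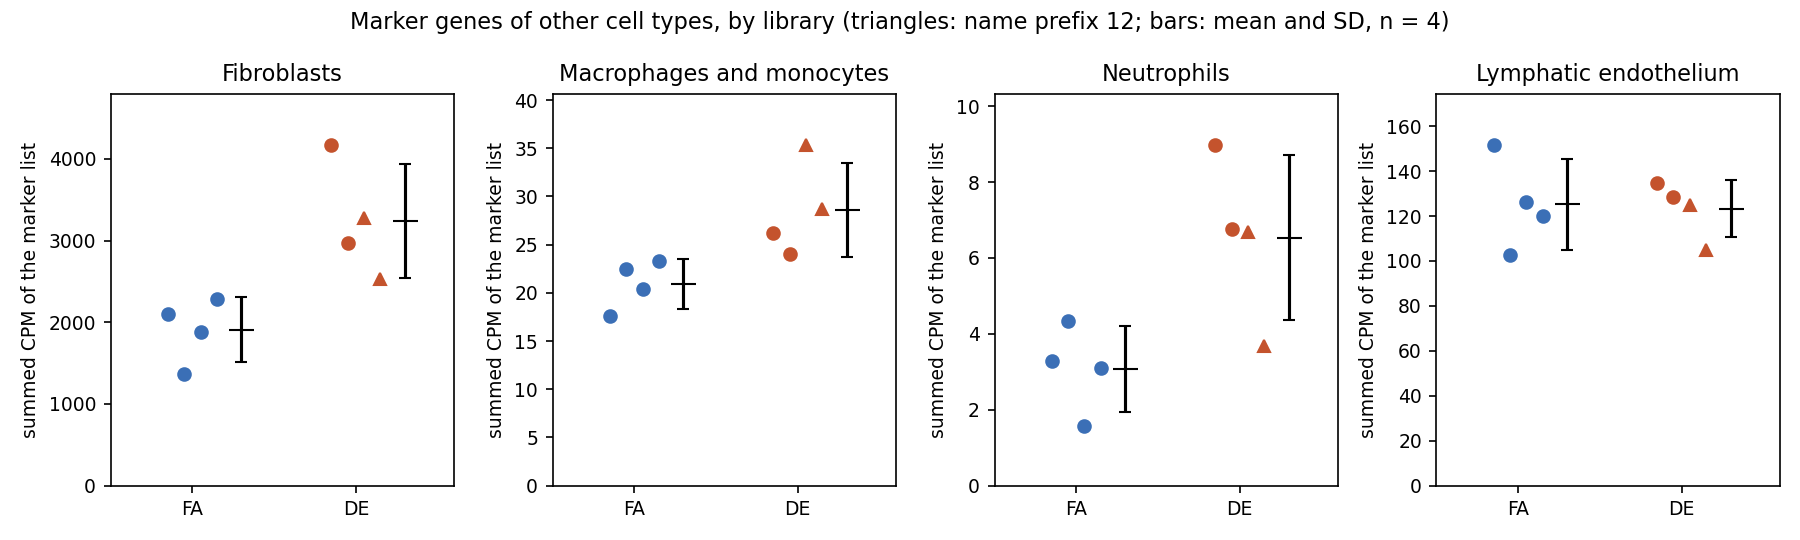
Summed CPM of 4 marker lists in each library (points), with the mean and SD of the 4 libraries per group. The fibroblast and macrophage sums of FA and DE do not overlap, whereas the neutrophil and lymphatic endothelial sums do.

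For 5 of the 6 called ligands the difference was smaller without the libraries with prefix 12. Among prefix 11 libraries alone, 4 FA and 2 DE, all 6 called ligands kept their direction, with log2 fold differences of 0.54 for Ccl2, 0.57 for Cxcl1, 0.64 for Cxcl2, 0.68 for Cxcl10, 1.28 for Cxcl9 and 1.67 for Ccl21d. None was called there, and 1.75% of all tested genes were. With the prefix as a term in the fit, 1 of the 6 was called, Cxcl9 (log2 fold change 1.28, adjusted p = 0.0486), beside 2.99% of all tested genes. No member was called without FA 4 or without DE 3, when 1.53% and 1.82% of all tested genes were.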

How the data were processed

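The authors aligned TruSeq stranded, poly-A enriched reads to mm10 with TopHat, marked but did not remove duplicates with Picard, and deposited raw counts per Entrez gene from featureCounts. Multi-mapping and strand settings of the counting are not given in the sources used here. Symbols came from the RefSeq table of GRCm38.p6 (25275 of 27179 rows matched). From the counts, DE was compared with FA in edgeR 4.0.16 (R 4.3.3) by the quasi-likelihood test with filterByExpr (minimum count 10), TMM factors and p-values adjusted by Benjamini-Hochberg across every gene tested, on all 8 labelled libraries, although the methods give fewer per group. CPM uses TMM-normalized library sizes, and FPKM also the GENCODE M21 exon length. DESeq2 1.42.0, limma 3.58.1, other scalings and filters, the name prefix and each library left out were alternatives. Promoter letters are from RefSeq. The test was checked on simulated counts.

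Members, lists and motifs were chosen with earlier results of these data known. Values by library are given for members called or at an unadjusted p under 0.05, for the 8 with the highest FPKM in FA, for each Ccl21 copy, and for Ccr7, Ackr4, Cxcl12, Cxcr4 and Ackr3. Other members are given by group and range, and Cxcr5 was singled out after its values were seen. Values of 1 untested member are not reported here.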

Additional observations from a re-analysis of the deposited data

Results flagged for a closer look

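Of 34 group values of the members given by library and of the Ccl21 sum, 1 held a library far from the other 3 of its group. Ackr3 was at 24.4 CPM in FA 6, whereas the other FA libraries lay between 17.0 and 17.49 CPM, and this gap made up 0.935 of the whole FA range, past the 95% critical value of Dixon's test. Chance alone marks about 1 in 20 groups in this way.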

How the results depend on the processing

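In every alternative, the called members were higher in DE. Instead of 6 members, the 25% difference built into the test called 0 (0.762% of all tested genes), the prefix term 1 and prefix 11 libraries alone 0, and leaving out single libraries gave 0 to 8, with 1 called without FA 2 (1.69% of all tested genes), 2 without FA 3 (2.8%) and 8 without DE 1 (7.93%). Limma-voom called 5, without Cxcl10, and DESeq2 and the likelihood ratio test called 9 each, from 10.8% and 10.7% of all tested genes. For the Ccl21 sum, the log2 fold difference and adjusted p were 1.735 and 0.117 with the 25% difference in the test, 1.557 and 0.0917 with the prefix term, 1.554 and 0.132 for prefix 11 libraries, and 1.627 and 0.0640 with Gm13304 and Gm10591 (chosen after seeing the data), and 1.457 to 2.255 without single libraries. Fewer libraries entered the fits on prefix 11 and those without single libraries, and otherwise the cause was not tested. Of the single named members, 228 values kept direction and side of the threshold, 43 lost the call, 12 gained it, and 1 turned, Cxcr4, which ran from -0.0010 without DE 3 to 0.24 without DE 5. With library totals alone, 78.7% of all called genes were higher in place of 61.8%, and the same 6 members were called. That share was 38.6% with the 25% difference in the test and 49.7% without FA 3. No paired analysis was made because the labels name no pairs between FA and DE samples. Members with at most 70 counts are limited by depth.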
